A study of Mus musculus with 6 samples.

Results

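Vegfa, Ddit4, Bnip3, Bnip3l, Ak4, Mgarp, Hilpda, P4ha1, P4ha2 and Plod2 are genes of the transcriptional response to low oxygen that lie outside glycolysis. They were selected on the values given here, as hypoxia-inducible genes already seen to be lower in CD8+ T cells treated with GSK, together with close relatives. The set holds 10 of the 16281 genes listed, and all 10 were among the 11698 genes that passed the filter on low counts. Since the contrast between GSK and vehicle chose them, that contrast is given for these genes as a description, and counts of them past a threshold are no independent test.

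CD8+ T cells, the cytotoxic arm of the T-cell response, came from spleens of C57BL/6 mice with the genotype Tg(TcraTcrb)1100Mjb, known as OT1. Their T cells carry a transgenic receptor for an ovalbumin peptide, so all cultures share that one specificity. The cells were activated for 48 h on plate-bound anti-CD3 (2 μg/ml) with soluble anti-CD28 and IL-2 (20 ng/ml) and then expanded in IL-2 for 72 h. GSK2879552 (GSK), an irreversible inhibitor of the histone demethylase LSD1, was present at 0.5 μM throughout in 3 cultures, and vehicle (Veh) in the other 3. The replicates came from separate mice, and whether a GSK and a Veh culture of the same number share a mouse is not given in the sources used here. The age of the mice and the oxygen level of the cultures are not given there either. Counted reads summed to between 18288447 and 18918811 in the Veh samples and to between 19149909 and 19846720 in the GSK samples. Kdm1a, which encodes LSD1, stood at a mean of 92.8 CPM in Veh and 87.1 in GSK, where CPM is the count scaled to the depth of its sample, the field's usual unit for comparing samples. This difference did not pass (adjusted p = 0.22), and the inhibitor acts on the protein. Unless another test is named, every adjusted p in the text is a Benjamini-Hochberg value from edgeR's quasi-likelihood test over all tested genes. A gene taken alone could not reach a two-sided exact permutation p under 0.1 with groups of 3.

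When oxygen is plentiful, prolyl hydroxylases mark the alpha subunits of the hypoxia-inducible factors and the VHL protein has them destroyed. When oxygen is scarce, or when T-cell receptor and cytokine signals raise the factors, the alpha subunits pair with ARNT and bind a short DNA core. Their targets raise glucose use, adjust mitochondria, call in blood vessels and help collagen to fold in the secretory pathway. In activated CD8+ T cells HIF-1 is known for its part in glycolysis and effector function.

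The short core bound by these factors is ACGTG or GCGTG. The sequences below, from ahead of 5 of the genes, show where those letters stand, with none in that of Vegfa. RefSeq promoter windows (GRCm38.p6), each 300 bases long with 250 before and 50 after a start site, were found for 8 of the 10 genes. Bnip3l and Plod2 had no entry. The stretches printed are the parts that lie ahead of the gene and outside annotated exons, written 5′ to 3′ on the gene's own strand, with the core in capitals on either strand (CACGT and CACGC are the same cores read on the other strand). They are chr7:138909520-138909756 (minus strand) for Bnip3, chr10:59323046-59323196 (plus strand) for P4ha1, chr11:54100674-54100923 (plus strand) for P4ha2, chr10:59951835-59952020 (minus strand) for Ddit4 and chr17:46032378-46032627 (minus strand) for Vegfa. P4ha1 and P4ha2 are shown as paralogs with the smallest and nearly the largest change of the set, Bnip3 for the most cores, Ddit4 as the most abundant gene per length, and Vegfa as the window with no core.
Bnip3: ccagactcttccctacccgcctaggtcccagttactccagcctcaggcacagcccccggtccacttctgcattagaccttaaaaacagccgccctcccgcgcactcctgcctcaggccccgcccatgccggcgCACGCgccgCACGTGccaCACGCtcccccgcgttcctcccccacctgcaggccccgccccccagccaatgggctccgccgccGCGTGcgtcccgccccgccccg
P4ha1: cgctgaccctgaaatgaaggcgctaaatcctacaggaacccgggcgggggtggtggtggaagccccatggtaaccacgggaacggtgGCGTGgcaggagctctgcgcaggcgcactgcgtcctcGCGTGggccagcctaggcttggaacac
P4ha2: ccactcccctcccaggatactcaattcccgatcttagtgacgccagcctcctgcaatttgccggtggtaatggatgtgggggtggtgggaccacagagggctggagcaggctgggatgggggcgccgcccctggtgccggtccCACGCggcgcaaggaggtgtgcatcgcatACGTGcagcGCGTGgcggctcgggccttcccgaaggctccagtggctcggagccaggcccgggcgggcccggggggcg
Ddit4: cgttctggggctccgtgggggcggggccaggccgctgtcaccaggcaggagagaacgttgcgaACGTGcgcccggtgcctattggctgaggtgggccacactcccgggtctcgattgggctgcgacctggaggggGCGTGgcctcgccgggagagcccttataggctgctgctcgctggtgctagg
Vegfa: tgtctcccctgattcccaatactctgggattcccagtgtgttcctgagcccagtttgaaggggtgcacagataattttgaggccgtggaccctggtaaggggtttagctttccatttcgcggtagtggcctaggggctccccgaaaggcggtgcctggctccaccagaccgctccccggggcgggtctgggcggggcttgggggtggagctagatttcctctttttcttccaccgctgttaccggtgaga

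Bnip3 held 5 cores in its printed stretch, counting the palindrome CACGTG on both strands. P4ha2 held 3 in the printed part and 4 in its whole window, P4ha1 held 2 in the printed part and 3 in its whole window, and Ddit4 held 2. The printed Vegfa window held 0, while a window at a second start site of Vegfa held 2. At least 1 core was found for 8 of the 8 genes with a window, in 12 of their 13 windows. Of the 12025 windows of tested genes, 61.7% held at least 1 core. Of the 9422 tested genes with a window, 67.6% held at least 1 core. When the 50 bases after the start were left out, the share was still 8 of 8, beside 61.7% of tested genes. A window with 3 or more cores was found for 5 of the 8 genes, beside 19.1% of tested genes. Each gene was counted by its best window, and Ak4 and Hilpda reached 3 in only 1 of their windows. The 8 genes had 13 windows, where the 9422 tested genes had 12025. The palindrome CACGTG, in which 2 cores overlap, was found for Ak4 and Bnip3, or 2 of 8, beside 11.7% of tested genes. These counts describe letters in a short window and not binding. Because the genes were picked as hypoxia-inducible, a higher share of cores among them is no independent result.

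All 10 genes were lower in GSK, and in each of them every GSK sample lay below every Veh sample. Their summed level was 1184, 1144 and 1234 CPM in Veh replicates 1, 2 and 3, and 759.9, 727.8 and 673.7 CPM in GSK replicates 1, 2 and 3. The log2 fold changes ran from -1.92 for Mgarp to -0.40 for P4ha1, with a median of -0.80. The median over all tested genes was -0.0039. At an adjusted p under 0.05, 10 of the 10 counted as lower, where 15.5% of all tested genes did. With a fold change over 1.5 as well, 9 of the 10 did, where 4.09% of all tested genes did, and P4ha1 was the exception. All GSK samples lay below all Veh samples for 23.0% of tested genes. Since the genes were selected on this contrast, these counts carry no weight as a result. In RNA from whole cultures, fewer cells that express a gene and less RNA per cell cannot be told apart.

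**Figure D1:**
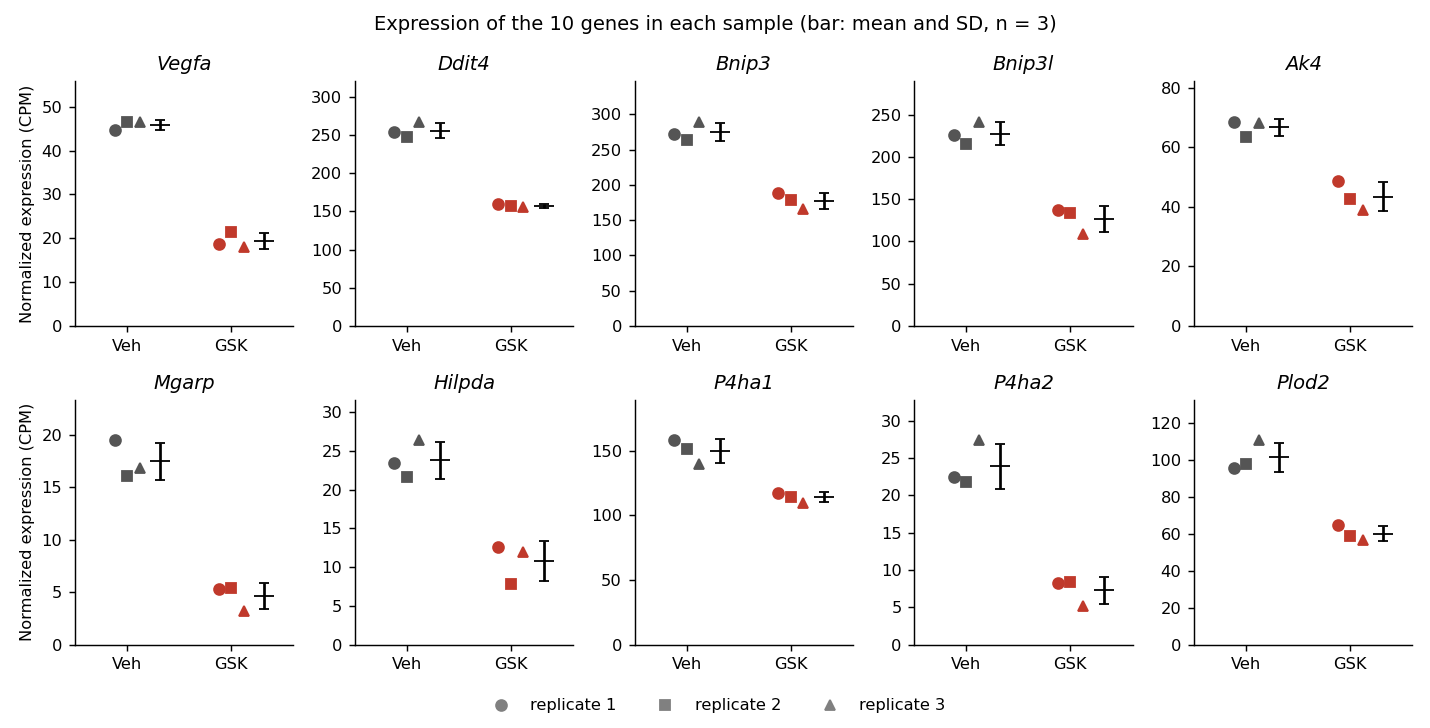
Normalized expression (CPM, linear axes from 0, a separate scale for each gene) of the 10 genes in each of 3 Veh and 3 GSK samples, with the mean and SD beside the points. In each panel the 3 GSK points lie below the 3 Veh points. The gap is widest relative to Veh for Mgarp, where the fitted fold change puts GSK at 26.5% of Veh.

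Vegfa, on the minus strand of chromosome 17 (46016993 to 46032377), encodes vascular endothelial growth factor A, the signal that draws in new vessels. It stood at 44.6, 46.5 and 46.6 CPM in Veh replicates 1, 2 and 3 and at 18.7, 21.5 and 18.0 CPM in GSK replicates 1, 2 and 3. The groups were far apart and each was tight (45.9 ± 1.10 against 19.4 ± 1.81 CPM, SD, n = 3). The fitted fold change put GSK at 42.4% of Veh. The log2 fold change was -1.24 with a standard error (SE) of 0.08.

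Few other ligands and receptors of the family were expressed well enough to test. Of the 8 listed, 3 were tested, 1 was lower (15.5% of all tested genes were), none was higher and 2 did not pass. Vegfb, a ligand with a lesser part in vessel growth, differed by -0.11 (log2, SE 0.10, adjusted p = 0.46) from a Veh mean of 18.1 ± 1.30 CPM (SD, n = 3). Reads of Vegfa made up 72.4%, 72.4% and 70.5% of the reads of the Vegfa and Vegfb pair in Veh replicates 1, 2 and 3, and 54.7%, 57.8% and 48.5% in GSK. The coreceptor gene Nrp1 fell by 1.17 on the log2 scale (SE 0.23, adjusted p = 0.0023), from 5.38 ± 0.351 to 2.38 ± 0.856 CPM (SD, n = 3). Nrp2 was near the limit of detection, at 0.663 ± 0.302 CPM in Veh and 0.498 ± 0.301 in GSK (SD, n = 3, adjusted p = 0.61). The receptor genes Flt1, Kdr and Flt4 and the ligand genes Pgf and Vegfd had too few counts to be tested.

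Ddit4 lies on the minus strand of chromosome 10 (59949675 to 59951770) and encodes REDD1, which restrains the growth kinase mTORC1 through the TSC complex. Its level was 253.3, 247.0 and 267.2 CPM in Veh replicates 1, 2 and 3 and 159.2, 156.9 and 155.2 CPM in GSK replicates 1, 2 and 3. The GSK samples lay within a few CPM of each other (157.1 ± 2.04, SD, n = 3) and well below the Veh samples (255.8 ± 10.3, SD, n = 3). The log2 fold change was -0.70 (SE 0.04).

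Ddit4 is also induced by ATF4 during amino acid and endoplasmic reticulum stress and by glucocorticoids, so lists for mTORC1 brakes, ATF4 and glucocorticoids were set beside it. Of 13 tested mTORC1 brakes and partners, 3 were lower (15.5% of all tested genes were), 1 was higher (16.6% were) and 9 did not pass. Their median log2 fold change was -0.07. Sesn1, a leucine-sensing sestrin, fell from 80.6 to 53.1 CPM (log2 fold change -0.60, SE 0.07, adjusted p = 4.0e-05). Txnip, a brake on glucose uptake, fell by 0.60 on the log2 scale (SE 0.12, adjusted p = 0.016). Tsc1, a TSC complex subunit, fell by 0.24 (log2, adjusted p = 0.034), a call that was lost when any one sample was left out except GSK replicate 2 (highest adjusted p 0.14). Sesn2, the stress-induced sestrin and an ATF4 target, rose by 0.42 on the log2 scale (adjusted p = 0.0013).

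Among the 10 ATF4 response genes, all tested, 3 were lower (15.5% of all tested genes were), 1 was higher and 6 did not pass. Their median was -0.24. Those lower were Trib3 (-0.50, adjusted p = 2.2e-04), a pseudokinase that feeds back on ATF4, Asns (-0.35, adjusted p = 3.5e-04), the asparagine synthetase, and Ddit3 (-0.55, adjusted p = 0.0019), the stress factor CHOP. The one higher was again Sesn2. Of 7 tested glucocorticoid-inducible genes, 2 were lower, 2 were higher and 3 did not pass. Per1 fell by 0.46 (log2, adjusted p = 1.4e-04) and Tsc22d3, which encodes GILZ, by 1.15 (log2, adjusted p = 0.0021). In the opposite direction, the kinase gene Sgk1 rose from 49.8 to 96.7 CPM (log2 fold change 0.96, adjusted p = 7.7e-07) and the phosphatase gene Dusp1 from 10.4 to 21.0 CPM (log2 fold change 1.01, adjusted p = 2.8e-05). At an adjusted p under 0.05, 16.6% of all tested genes were higher.

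Bnip3 and Bnip3l (also called NIX) encode paralogous proteins of the outer mitochondrial membrane that tether mitochondria to the autophagosome for removal by mitophagy. Bnip3, on the minus strand of chromosome 7 (138890836 to 138909506), stood at 272.7, 263.7 and 289.2 CPM in Veh replicates 1, 2 and 3 and at 188.2, 178.3 and 166.0 CPM in GSK. Bnip3l, on the minus strand of chromosome 14 (66985238 to 67008877), stood at 226.3, 214.6 and 241.3 CPM in Veh and at 137.0, 133.7 and 108.7 CPM in GSK. In both genes Veh replicate 3 was the highest sample and GSK replicate 3 the lowest. The log2 fold change was -0.63 (SE 0.05) for Bnip3 and -0.85 (SE 0.09) for Bnip3l. Bnip3l held 45.4%, 44.9% and 45.5% of the reads of the pair in Veh replicates 1, 2 and 3, and 42.1%, 42.9% and 39.6% in GSK, so the share of Bnip3l was lower in each GSK sample than in each Veh sample.

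Counts of this pair are less certain than those of the rest. Of the 31-base stretches of Bnip3 transcripts, 20.3% also occur in other genes, mostly the pseudogenes Gm16439, Gm6532 and Gm9419, and an antisense gene, Gm45507, covers 22.3% of its exon bases. The libraries were stranded, but whether the counting used the strand is not given in the sources used here. For Bnip3l 23.7% of such stretches occur elsewhere, mostly in the pseudogene Bnip3l-ps. That pseudogene was itself counted at 102 to 272 reads per sample and had a log2 fold change of -0.91 (adjusted p = 9.0e-04).

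Other genes of mitophagy and autophagosomes were set beside the pair. Of 18 tested, 3 were lower (15.5% of all tested genes were), 1 was higher and 14 did not pass, with a median log2 fold change of 0.01. Map1lc3b, which encodes the autophagosome protein LC3B, fell by 0.27 (log2, SE 0.05, adjusted p = 0.0016). The cargo receptor gene Sqstm1 (-0.14, adjusted p = 0.029) and the kinase gene Ulk1 (-0.20, adjusted p = 0.041) also fell, and Phb2, a mitochondrial inner membrane receptor, rose (0.20, adjusted p = 0.0099). The call of Sqstm1 was lost without Veh replicate 2, Veh replicate 3 or GSK replicate 1 (highest adjusted p 0.14), that of Ulk1 without any one sample except GSK replicate 2 (highest 0.16), and that of Phb2 without Veh replicate 1 (0.053). Other outer membrane receptor genes, none of which passed, had log2 fold changes of -0.15 (Fundc1), -0.04 (Bcl2l13) and 0.05 (Fkbp8). They were named after their values were seen.

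Mgarp encodes a mitochondrial protein linked to the placement of mitochondria in the cell, and lies on the minus strand of chromosome 3 (51388412 to 51396547). It had the largest fold of the set, from 19.5, 16.1 and 16.9 CPM in Veh replicates 1, 2 and 3 to 5.25, 5.42 and 3.18 CPM in GSK. The highest GSK sample lay far under the lowest Veh sample, and GSK replicate 3 was well below the other GSK samples. The log2 fold change was -1.92 (SE 0.17), which ranked 20 from the lowest of the 11698 tested genes. Of 9 tested genes for mitochondrial transport and its adaptors, none was lower, 3 were higher (16.6% of all tested genes were) and 6 did not pass. Their median was 0.08. The kinesin gene Kif5b rose by 0.21 (log2, adjusted p = 0.0031), the fusion gene Mfn2 by 0.16 (adjusted p = 0.025) and the adaptor gene Trak2 by 0.17 (adjusted p = 0.028). The call of Mfn2 was lost without any one sample except Veh replicate 2 or GSK replicate 2 (highest adjusted p 0.10), and that of Trak2 without Veh replicate 1, Veh replicate 3 or GSK replicate 3 (highest 0.12).

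Ak4, on the plus strand of chromosome 4 (101416478 to 101467771), encodes a nucleotide-binding adenylate kinase of the mitochondrial matrix. It stood at 68.6, 63.6 and 68.4 CPM in Veh replicates 1, 2 and 3 and at 48.7, 42.8 and 39.1 CPM in GSK. All GSK samples were lower, though their spread was wider than that of the Veh samples (43.5 ± 4.85 against 66.8 ± 2.84 CPM, SD, n = 3). The log2 fold change was -0.62 (SE 0.08), and without GSK replicate 3 it was -0.55, under a fold change of 1.5. A pseudogene, Ak3l2-ps, accounts for most of the 11.6% of its 31-base stretches found in other genes.

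None of the other adenylate kinases tested was lower. Cmpk1, the cytosolic UMP-CMP kinase, rose by 0.17 (log2, adjusted p = 0.021), a call lost without Veh replicate 2, Veh replicate 3 or GSK replicate 3 (highest adjusted p 0.08). Ak3, the matrix kinase closest to Ak4, had a log2 fold change of -0.03 (SE 0.05, adjusted p = 0.71) and was named after its value was seen. Reads of Ak4 made up 44.1%, 42.7% and 43.2% of the Ak4 and Ak3 pair in Veh replicates 1, 2 and 3 and 37.1%, 33.0% and 30.8% in GSK.

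Hilpda encodes a small lipid droplet protein that inhibits the triglyceride lipase ATGL, and lies on the plus strand of chromosome 6 (29272488 to 29275449). Its level was 23.4, 21.6 and 26.4 CPM in Veh replicates 1, 2 and 3 and 12.6, 7.84 and 12.0 CPM in GSK replicates 1, 2 and 3. Hilpda alone of the set had its lowest GSK sample in replicate 2, and the GSK samples were spread more widely than the Veh samples relative to their mean (10.8 ± 2.59 against 23.8 ± 2.40 CPM, SD, n = 3). The log2 fold change was -1.14 (SE 0.16).

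Of 11 tested lipid droplet genes, 3 were lower (15.5% of all tested genes were), none was higher and 8 did not pass. Their median log2 fold change was 0.12, opposite in sign to the 3 calls. Plin2, which coats lipid droplets and is a target of several lipid-sensing receptors, fell from 24.4 to 14.5 CPM (log2 fold change -0.75, SE 0.09, adjusted p = 8.6e-05). Dgat1, which makes triglyceride, fell by 0.63 (log2, SE 0.09, adjusted p = 6.9e-04). Mgll, the monoglyceride lipase, fell by 2.08 on the log2 scale (SE 0.60, adjusted p = 0.019) from a level of only 0.747 ± 0.234 CPM (SD, n = 3), and lost the call without Veh replicate 3, GSK replicate 2 or GSK replicate 3 (highest adjusted p 0.082). Its log2 fold change ran from -3.18 without GSK replicate 1 to -1.66 without GSK replicate 3. Pnpla2, which encodes ATGL, had a log2 fold change of 0.10 (adjusted p = 0.21), and was named after its value was seen.

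P4ha1 and P4ha2 encode alternative catalytic subunits of collagen prolyl 4-hydroxylase, and Plod2 encodes a lysyl hydroxylase. All 3 enzymes modify collagen chains in the endoplasmic reticulum and use oxygen, iron and ascorbate, as the oxygen-sensing prolyl hydroxylases do. P4ha1, on the plus strand of chromosome 10 (59323197 to 59373304), stood at 158.0, 151.5 and 140.0 CPM in Veh replicates 1, 2 and 3 and at 117.5, 114.3 and 109.8 CPM in GSK. P4ha2, on the plus strand of chromosome 11 (54100924 to 54131668), stood at 22.5, 21.8 and 27.4 CPM in Veh and at 8.24, 8.40 and 5.11 CPM in GSK. Plod2, on the plus strand of chromosome 9 (92539636 to 92608428), stood at 95.5, 97.8 and 110.4 CPM in Veh and at 64.4, 58.6 and 56.7 CPM in GSK.

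The catalytic paralogs were unequal in level and in change. P4ha1 was the more abundant and had the smallest change of the 10 genes, with a GSK mean at 76.0% of the Veh mean (log2 fold change -0.40, SE 0.05). P4ha2 kept 30.4% of its Veh level by the fitted fold change (log2 fold change -1.72, SE 0.17). Reads of P4ha2 were 12.5%, 12.6% and 16.4% of the pair in Veh replicates 1, 2 and 3 and 6.55%, 6.85% and 4.45% in GSK. Plod2 lay between them, with a log2 fold change of -0.76 (SE 0.07). Over 6.42% of the exon bases of Plod2 a gene model on the opposite strand, Gm38391, is annotated.

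Of 18 other collagen processing enzymes listed, 8 were tested. Of these, 3 were lower (15.5% of all tested genes were), 1 was higher and 4 did not pass. Their median log2 fold change was -0.07. Plod1, another lysyl hydroxylase, fell by 0.59 (log2, SE 0.14, adjusted p = 0.0053) from 8.58 ± 0.500 CPM (SD, n = 3). P4hb, which encodes the shared partner subunit and a general disulfide isomerase, fell by 0.13 (log2, SE 0.04, adjusted p = 0.015), a call lost without Veh replicate 3 (adjusted p = 0.072). Plod3 fell by 0.21 (log2, adjusted p = 0.048), a call lost whichever sample was left out (highest adjusted p 0.18). Crtap, a cofactor of prolyl 3-hydroxylation, rose by 0.25 (log2, adjusted p = 0.028), a call lost without any one sample except Veh replicate 3 or GSK replicate 2 (highest adjusted p 0.10). The other 10 listed enzymes, the lysyl oxidases and the collagen chaperone gene Serpinh1 among them, had too few counts to be tested.

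**Figure D2:**
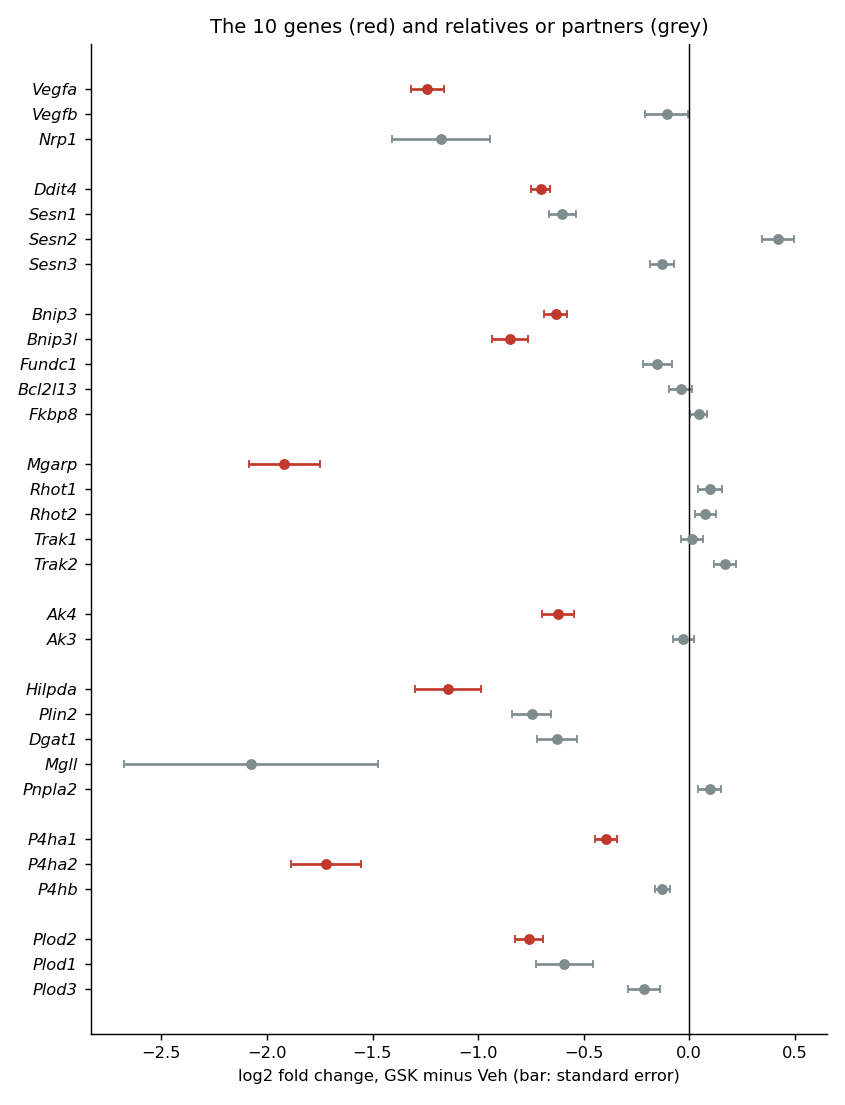
Log2 fold change (GSK minus Veh) with its standard error for the 10 genes (red) and for relatives or partners of the same role (grey), grouped by role from top to bottom. The grey genes are a selection. Those that did not pass the test were picked for the plot after their values were seen. Some that passed are left out, both lower (such as Txnip and Map1lc3b) and higher (such as Kif5b and Mfn2). The red points run from -1.92 to -0.40, while grey points lie on both sides of 0, with Mgll (-2.08) lowest and Sesn2 (0.42) highest of those plotted.

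Compared per length, as CPM per kilobase (kb) of exon, the 10 genes covered a wide range in Veh. Ddit4 was highest at 145.8 ± 5.88 CPM per kb (SD, n = 3), followed by Bnip3 at 121.5 ± 5.72, Bnip3l at 58.9 ± 3.47 and P4ha1 at 36.4 ± 2.21. Hilpda (21.6 ± 2.18) and Plod2 (18.8 ± 1.49) came next, and the ranges of these neighbours overlapped, at 19.6 to 23.9 and 17.7 to 20.5 CPM per kb. Ak4 (14.4 ± 0.611), Vegfa (10.7 ± 0.257), Mgarp (8.46 ± 0.857) and P4ha2 (3.83 ± 0.485) were the lowest, with no overlap between neighbours. In GSK the order of Hilpda and Plod2 was turned around, at 9.80 and 11.1 CPM per kb, and the range of Hilpda (7.11 to 11.4) overlapped those of Plod2 (10.5 to 11.9) and Ak4 (8.41 to 10.5).

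Within the groups, the genes also tended to share the order of the samples. GSK replicate 3 was the lowest GSK sample in 9 of the 10 genes, all but Hilpda, and this was so for 36.2% of all tested genes. Veh replicate 3 was the highest Veh sample in 7 of the 10 (32.4% of all tested genes), and Veh replicate 2 the lowest in 7 of the 10 (32.4% of all tested genes). Among 35 other tested hypoxia-inducible genes, described below, GSK replicate 3 was the lowest GSK sample in 51.4%. In these 35, Veh replicate 3 was the highest Veh sample in 51.4% and Veh replicate 2 the lowest in 65.7%. For the 10 genes, deviations from the mean of the sample's own group were taken on the log2 CPM scale. Their median was 0.11 for GSK replicate 1, 0.0073 for GSK replicate 2 and -0.10 for GSK replicate 3. The widest were those of Mgarp (-0.48) and P4ha2 (-0.46) in GSK replicate 3 and of Hilpda (-0.43) in GSK replicate 2, in genes of low counts. The 10 genes are not independent of each other here, since each sample's culture and library are common to all of them.

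**Figure D3:**
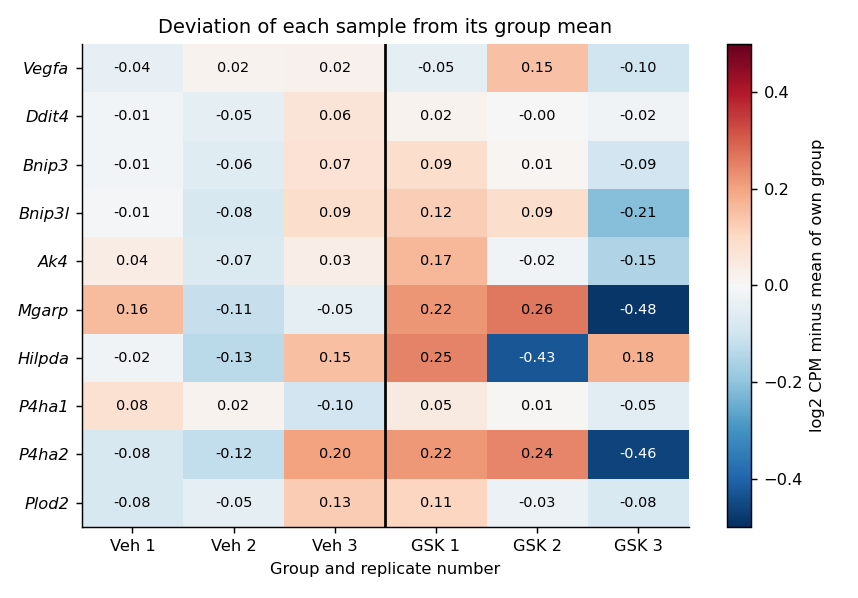
Deviation of each sample from the mean of its own group, in log2 CPM, for the 10 genes (lines) in the 3 Veh and 3 GSK samples (columns). Red is above and blue below the group mean, and the GSK replicate 3 column is below 0 for 9 of the 10 genes, Hilpda (0.18) being the exception.

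The Gene Ontology terms that the deposited table gives for each gene show what else the set shares. Of the 10 genes, 5 carried the term for the cellular response to hypoxia (Vegfa, Bnip3, Bnip3l, Ak4 and Mgarp), which 0.484% of the 11146 tested genes with a term carried. A further term, response to hypoxia, was carried by Vegfa, Ddit4 and Bnip3. Mitochondrion was given for 6 of the 10 (13.3% of tested genes), namely Ddit4, Bnip3, Bnip3l, Ak4, Mgarp and P4ha1. Endoplasmic reticulum was given for 5 of the 10 (9.82% of tested genes), namely Bnip3, Bnip3l, P4ha1, P4ha2 and Plod2. Binding of L-ascorbic acid was given for P4ha1, P4ha2 and Plod2, and for 15 tested genes in all. Hilpda, P4ha1, P4ha2 and Plod2 had neither of the hypoxia terms. Since the 10 were picked as hypoxia-inducible genes, their share of the hypoxia terms was built in and is no result.

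A wider list of 43 hypoxia-inducible genes, none of the 10 among them and none of glycolysis, was mostly lower in GSK. Of the 35 that were tested, 25 were lower (15.5% of all tested genes were), 2 were higher and 8 did not pass. Their median log2 fold change was -0.42. With a fold change over 1.5 as well, 12 were lower and none was higher, where 4.09% and 2.22% of all tested genes were. All GSK samples lay below all Veh samples for 26 of the 35 (23.0% of all tested genes) and above them for 2 (23.7% of all tested genes). This list was chosen with earlier results of these data known, so its direction is not independent evidence.

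Nrn1, which encodes the surface protein neuritin, had the smallest p of the list and fell from 25.7 ± 1.12 to 8.82 ± 1.46 CPM (SD, n = 3), with a log2 fold change of -1.54 (SE 0.11, adjusted p = 1.5e-06). Ero1a, the oxidase that drives disulfide formation in the endoplasmic reticulum, fell from 300.5 ± 17.3 to 163.1 ± 13.6 CPM (SD, n = 3, log2 fold change -0.88, adjusted p = 2.9e-06). Mxi1, which encodes an antagonist of MYC, fell by 1.22 on the log2 scale (SE 0.09, adjusted p = 3.5e-06). Ndrg1, a stress-responsive gene widely used as a readout of hypoxia, fell by 1.13 on the log2 scale (SE 0.08, adjusted p = 1.5e-05).

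The glycogen genes of the same list were named after their values were seen. Pygl, the glycogen phosphorylase that breaks glycogen down, fell from 41.3 ± 6.16 to 11.3 ± 2.97 CPM (SD, n = 3, log2 fold change -1.87, adjusted p = 0.0011). The synthase gene Gys1 fell by 0.85 (log2, adjusted p = 5.9e-05) and the branching enzyme gene Gbe1 by 0.83 (log2, adjusted p = 2.6e-04). Ppp1r3b, a subunit that targets a phosphatase to glycogen, did not pass, at 38.8 ± 3.15 CPM in Veh and 39.1 ± 1.56 in GSK (SD, n = 3, log2 fold change 0.01, adjusted p = 0.93).

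The genes higher in GSK were Car12, a membrane carbonic anhydrase that rose from 17.6 ± 0.183 to 24.8 ± 1.99 CPM (SD, n = 3, log2 fold change 0.50, adjusted p = 7.3e-04), and Tfrc, the transferrin receptor. Tfrc rose by only 0.12 on the log2 scale (adjusted p = 0.041), and its call was lost without any one sample except GSK replicate 2 (highest adjusted p 0.18). The classical hypoxia gene Car9, named after its value was seen, did not pass, with means of 1.16 CPM in Veh and 0.967 CPM in GSK (adjusted p = 0.59). Adm and Stc1, known targets in other cell types, had too few counts to be tested, as had Cox4i2, Lox, Loxl2, Ndufa4l2 and Ppp1r3c.

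Of 9 tested genes of oxygen sensing, 4 were lower (15.5% of all tested genes were), 1 was higher and 4 did not pass. The hydroxylase genes Egln3 (-1.03, adjusted p = 8.9e-05) and Egln1 (-0.54, adjusted p = 5.3e-05), which are hypoxia-inducible and also stand in the wider list, and Vhl (-0.48, adjusted p = 8.9e-04) fell on the log2 scale. Hif1a rose from 537.2 ± 13.6 to 597.2 ± 21.7 CPM (SD, n = 3, log2 fold change 0.15, adjusted p = 0.0095), a call lost without GSK replicate 1 (adjusted p = 0.064). Epas1, which encodes HIF-2 alpha, fell by 0.89 on the log2 scale (adjusted p = 0.019) from a low level of 3.67 ± 0.652 CPM (SD, n = 3), a call lost without Veh replicate 3 or GSK replicate 1 (highest adjusted p 0.087). The genes that did not pass were Hif3a (-0.28, adjusted p = 0.47), Arnt (-0.09, adjusted p = 0.21), Egln2 (0.04, adjusted p = 0.66) and Hif1an (-0.12, adjusted p = 0.10).

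Among 21 glycolytic targets of the same factors, all tested, 19 were lower, none was higher and 2 did not pass, where 15.5% of all tested genes were lower, and the median log2 fold change was -0.27. With a fold change over 1.5 as well, 3 of the 21 were lower (4.09% of all tested genes), namely Slc2a3, Aldoc and Pdk1. Aldoa, the aldolase gene, fell by 0.34 (log2, adjusted p = 3.8e-06) and Pgk1 by 0.36 (log2, adjusted p = 2.5e-05), from means of 2734 and 1943 CPM. The glucose transporter gene Slc2a3 fell by 1.18 (log2, adjusted p = 3.6e-06) and the kinase gene Pdk1, which holds pyruvate back from the mitochondria, by 0.64 (log2, adjusted p = 2.5e-05).

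**Figure D4:**
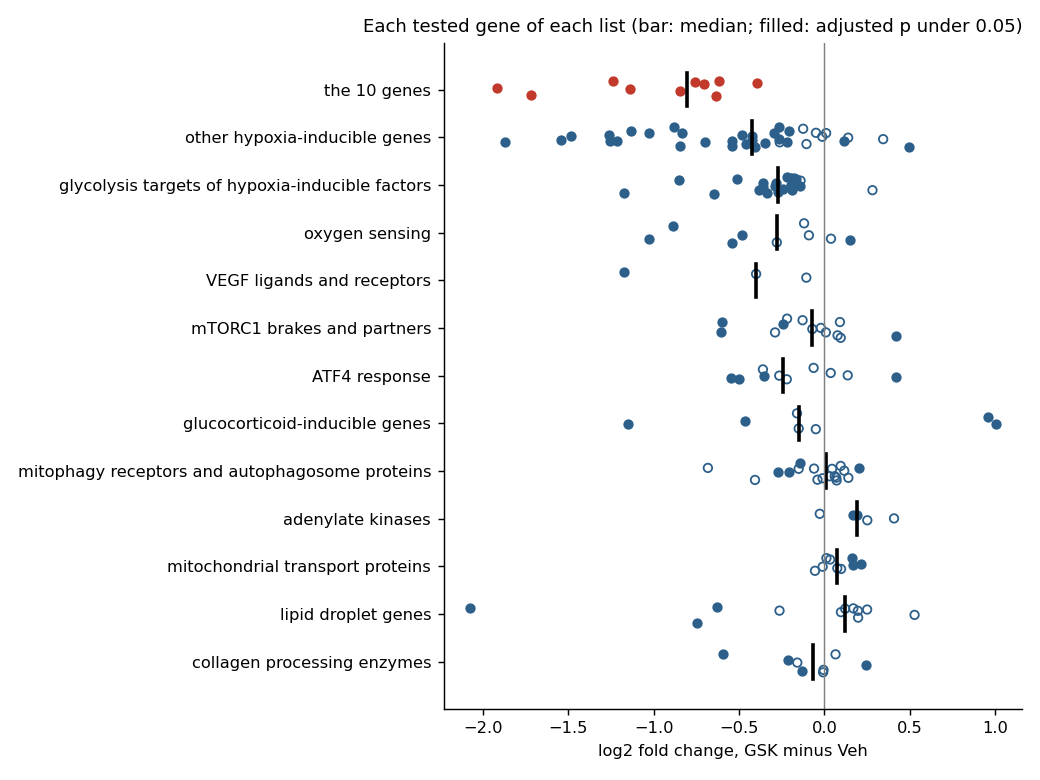
Log2 fold change (GSK minus Veh) of each tested gene in each list, with the list median as a bar, filled points at an adjusted p under 0.05 and open points above it. Points are spread vertically within a list only for legibility. The medians are -0.80 for the 10 genes, -0.42 for the other hypoxia-inducible genes and -0.27 for glycolysis. Of the other lists, medians are -0.40 for VEGF (3 tested), -0.28 for oxygen sensing, -0.24 for ATF4 and -0.15 for glucocorticoids. They are -0.07 for mTORC1 and for collagen processing, 0.01 for mitophagy and 0.08 for mitochondrial transport. For lipid droplets the median is 0.12 and for adenylate kinases 0.19.

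Markers of the cells in culture were set beside these results. The T-cell genes Cd3d, Cd3e, Cd3g, Cd8a and Cd8b1 summed to 1937 to 2036 CPM in Veh samples and to 1752 to 1869 CPM in GSK samples, with the 3 Cd3 genes lower and the Cd8 genes not past the test. Markers of stroma and endothelium summed to 76.0 to 84.4 CPM in Veh samples and to 61.1 to 75.4 CPM in GSK samples, most of it Pecam1, which T cells also express. None of the 5 of these 7 markers that were tested passed. All 5 had log2 fold changes below 0, and for Col1a1 (1.96 against 1.15 CPM, log2 fold change -0.76, adjusted p = 0.051) and Pdgfrb (0.822 against 0.431 CPM, log2 fold change -0.92, adjusted p = 0.12) every GSK sample lay below every Veh sample. Col1a2 (1.36 against 1.17 CPM) and Col3a1 (0.839 against 0.605 CPM) overlapped between the groups. The untested markers were Pdgfra, at 0.142 and 0.086 CPM, and Cdh5, at 0.124 and 0 CPM, in Veh and GSK. Myeloid markers summed to 10.2 to 15.6 CPM in Veh samples and to 9.96 to 13.2 CPM in GSK samples, and B-cell markers to 5.78 to 7.94 and 5.53 to 6.53 CPM. None of the 3 tested of 6 myeloid markers and the 1 tested of 5 B-cell markers passed. Every GSK sample lay below every Veh sample for the myeloid Itgam (2.4 against 1.5 CPM, log2 fold change -0.70, adjusted p = 0.073). The same held for the B-cell Cd79b (6.5 against 4.9 CPM, log2 fold change -0.41, adjusted p = 0.07). The tested myeloid markers Lyz2 and Cd68 overlapped between the groups. The 6 erythroid markers summed to at most 0.365 CPM in any sample. The part of the markers that moved in the differences of the 10 genes was not tested.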

How the data were processed

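RNA was sequenced from 6 cultures of CD8+ T cells, 3 per group. The authors deposited whole, unnormalized read counts per gene. The submitters' processing notes name Trimmomatic, HISAT2 (version 2.1.0), HTSeq (version 0.11.2), Cufflinks (version 2.2.1), DESeq2 (version 1.22.2) and the build GRCm38. The annotation release and the strand setting of the counting are not given in the sources used here. Gene names and Gene Ontology terms came from the deposited table.

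The comparison of GSK with Veh used edgeR (version 4.0.16, under R version 4.3.3), with its robust quasi-likelihood test on TMM-scaled counts after filterByExpr, with Benjamini-Hochberg adjustment over 11698 genes. CPM were computed from TMM-scaled library sizes, and log2 CPM used a prior count of 2. Standard errors were derived from the test statistic. The test was checked on simulated counts. Replicates differed by more than sampling noise (chi-square per degree of freedom 4.07 to 9.38). Exon lengths, overlaps and shared stretches of 31 bases came from GENCODE M21 and coordinates and promoter windows from RefSeq (GRCm38.p6).

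The 10 genes and all lists were chosen with earlier results of these data known. Named genes were the 10, every tested gene of the oxygen-sensing and VEGF lists, up to 4 genes in each direction with the smallest p in each other list, and the 5 genes most like the 10. Alternatives were DESeq2 (version 1.42.0), its size factors in edgeR, other filters, a replicate block, a test against a fold change of 1.5, no fold change threshold, and leave-one-out fits. ChIP-seq was not analysed here. Results of certain listed genes are not reported here.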

Additional observations from a re-analysis of the deposited data

How the results depend on the processing

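The direction of each of the 10 genes and its side of the adjusted p threshold were the same in 110 of 110 values from the alternatives. The test against a fold change of 1.5 was not among these values. Leaving out a sample left 8 to 9 of the 10 past both thresholds, with Ak4 lost without GSK replicate 3. A test against a fold change of 1.5, which for the 10 is again no independent test, left 4 of them (Vegfa, Mgarp, Hilpda and P4ha2). In all it left 65 lower and 69 higher genes, beside 479 and 260. Of the 4, Hilpda lay at the threshold of that test (adjusted p = 0.05 after rounding). By the adjusted p alone, 1819 genes were lower and 1941 higher. With a replicate block 447 genes were lower and 253 higher, 9 of the 10 stayed past both thresholds, and 25 other hypoxia-inducible genes were lower. DESeq2 gave 416 lower and 234 higher genes, with 9 of the 10 and 24 other hypoxia-inducible genes lower. The other hypoxia-inducible genes higher in GSK numbered 1, not 2, with a mean count of at least 50 and with the replicate block, and 1 to 2 with a sample left out, since Tfrc was lost. Of 534 values for 49 other named genes, 470 kept their side of the threshold, 64 lost the call and 0 reversed. These values also leave out the test against a fold change of 1.5. The deviations of GSK and Veh samples that share a number from the means of their groups correlated across genes by -0.052, -0.081 and 0.16. Such values cannot tell whether samples of the same number share a mouse. The numbers were not taken as pairs in the main fit, and a call lost under the block is not a weaker effect. Mgll, with 1 to 19 reads per sample, rests on few counts.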

Other observations

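Among all tested genes other than the 10, those whose levels ran most like the mean profile of the 10 over the 6 samples were found by Pearson's r between log2 CPM and that profile, as a description. The highest of 11688 genes were Ero1a (r = 0.9990) and Ndrg1 (r = 0.9989), both in the list of other hypoxia-inducible genes, then Tmem167b (r = 0.9976), 2310022B05Rik (r = 0.9975) and the glycolytic gene Aldoa (r = 0.9972). Tmem167b was lower by little, from 44.7 ± 0.503 to 38.8 ± 0.703 CPM (SD, n = 3, log2 fold change -0.20), and 2310022B05Rik fell from 21.9 ± 0.731 to 14.6 ± 0.772 CPM (SD, n = 3, log2 fold change -0.59). With 6 samples in 2 groups, a high r reflects mostly the difference between the groups, and 601 genes had an r over 0.95.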
